A study of Rattus norvegicus with 6 samples.

Results

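The enzymes that modify and clear foreign compounds and reactive aldehydes were followed in rat intestinal cells depleted of Suz12. Members were the probe sets annotated to exactly 1 gene symbol of the glutathione transferases (Gsta, Gstm, Gstp, Gstt, Gsto, Mgst), UDP-glucuronosyltransferases (Ugt1, Ugt2), sulfotransferases (Sult), aldehyde dehydrogenases (Aldh), aldo-keto reductases (Akr), cytochromes P450 (Cyp, without Cyp51), flavin-containing monooxygenases (Fmo), epoxide hydrolases (Ephx) and carboxylesterases (Ces), together with Nqo1, Gclc, Gclm, Hmox1, Por, Ahr, Adh1 and Adh7. The rule reads gene names and no measured value, although it was written with earlier results of these data known. The rule found 178 probe sets of 152 genes among 31042 probe sets tested, of which 20826 carried 1 symbol. Among the 178 is Fmod, the gene of fibromodulin, a small proteoglycan of the extracellular matrix that shares only its first letters with the monooxygenases. It is given once below, and all further counts are over the other 177 probe sets of 151 genes, which are called the members. No member started with Ugt1 and none was Adh1, and 13 more probe sets of these families carried several symbols and were left out. Of those 13 probe sets, 1 was at least 2-fold higher in ShSuz12 cells at an adjusted p under 0.05 (7.69%, against 3.1% of all probe sets). At the same limits 0 were lower, against 0.396% of all probe sets.

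RNA came from IEC-6 cells, a non-tumorigenic rat line with the features of undifferentiated cells of the small intestinal crypt. ShSuz12 cells carried a lentiviral short hairpin RNA against Suz12, a subunit of the Polycomb repressive complex PRC2 that places the repressive H3K27 trimethyl mark. ShControl cells carried the same kind of vector with a scrambled hairpin, and both were kept as puromycin-selected populations in DMEM with fetal bovine serum. Each group had 3 arrays from independent experiments, and no source names more than 1 infected population of each kind, so the p-values measure the spread between those experiments.

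Drug-metabolizing enzymes are usually grouped by the step they catalyse. Oxidizing, reducing and hydrolysing enzymes such as the cytochromes P450, the monooxygenases, the aldehyde dehydrogenases and the epoxide hydrolases expose a reactive group, and transferases then attach glutathione, glucuronic acid or sulfate. In intestinal epithelium and liver many of these genes respond to Ahr, the receptor for aromatic hydrocarbons, or to Nrf2 (Nfe2l2), a factor released from Keap1 by electrophiles that drives glutathione synthesis and quinone reduction.

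Suz12, the target of the hairpin, had log2 values of 5.82, 5.77 and 5.91 on the ShSuz12 arrays, against 8.45, 8.55 and 8.77 on the ShControl arrays. The ShSuz12 level was 14.8% of the ShControl level, a log2 fold change of -2.76 (SE 0.09, adjusted p = 2.78e-07 from limma, adjusted over all 31042 probe sets). Expression values are log2 values of the robust multi-array average (RMA), which gives no present or absent call, so that a dim probe set gives an uncertain fold. Of a list of 24 measured markers of intestinal epithelium, Cdh1 and Tjp1 lay near the top of the array, while Epcam, Vil1 and Muc2 were under its 30th percentile in both groups. Over all probe sets, 14.8% were higher and 19.5% lower at an adjusted p under 0.05. With a change of at least 2-fold as well, 3.1% were higher and 0.396% lower. Of the 24 epithelium genes, 4 were higher at an adjusted p under 0.05 (16.7%) and 2 lower (8.33%). Cdx2 and Krt19 were at least 2-fold higher (8.33%). Their summed linear level was 9519.9 to 9815.3 in ShSuz12 cells, against 11454 to 12287 in ShControl cells, and without Cdh1 it was 5969.3 to 6072.0 in ShSuz12 cells, against 5545.2 to 5657.0 in ShControl cells. Most of that remainder came from Tjp1, with a mean log2 value of 12.15 in ShSuz12 cells and 11.98 in ShControl cells. A sum without both genes was not computed, so these sums give no common direction of the other markers. Of 19 fibroblast and smooth muscle markers, 10 were higher (52.6%) and 2 lower (10.5%), and 6 of the 19 were at least 2-fold higher (31.6%). The summed level of these 19 was 63365 to 65032 in ShSuz12 cells and 44293 to 47646 in ShControl cells. Markers of hepatocytes (2 of 15 higher, 3 lower), leukocytes (0 of 10 higher, 3 lower) and endothelium (2 of 9 higher, 0 lower) and reference genes (2 of 10 higher, 3 lower) were counted in the same way. The part of these shifts in the enzyme values was not tested. On bulk arrays, fewer cells of a type and less RNA per cell cannot be told apart.

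A probe set is called here at an adjusted p under 0.05 and a change of at least 2-fold. Of the 177 member probe sets, 7 were called higher in ShSuz12 cells (3.95%, where the background over all probe sets was 3.1%). Another 3 were called lower (1.69%, background 0.396%). Mgst3, Fmo4, Akr1c15, Cyp11b1, Ephx1, Cyp26b1 and Mgst1 were the 7 higher genes, and Aldh3a1, Adh7 and Gclm the 3 lower. Without the fold limit, 33 members rose (18.6%, background 14.8%), 23 fell (13.0%, background 19.5%) and 121 did not pass. The groups did not overlap for 41 members that were higher in ShSuz12 cells (background 19.4%) and for 40 that were lower (background 28.1%). The median log2 fold change was -0.05 over the members and -0.05 over all probe sets. With Fmod counted, 8 were called higher and 34 rose.

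Many members were dim. Of the 177, 107 did not exceed the 40th percentile of the array in 2 of 3 arrays of either group, among them all 9 UDP-glucuronosyltransferase probe sets, all 6 of carboxylesterases, 13 of 15 of sulfotransferases and 50 of 64 of cytochromes P450. Probe sets were also split at the median of all means over the 6 arrays, a choice made after seeing the data. In the upper part lay 54 members, of which 17 rose (31.5%) and 19 fell (35.2%), where 18.6% of all probe sets of that part rose and 30.8% fell. In the lower part lay 123 members, of which 16 rose (13.0%) and 4 fell (3.25%), where 11.1% of all probe sets of that part rose and 8.22% fell. Small changes depended on the scaling. Subtracting each array's median moved the median of all probe sets to -0.15, and 27 members then rose and 63 fell, while over all probe sets 3576 rose and 11752 fell in place of 4607 and 6054. Of the 56 members that passed, 6 no longer passed under that scaling and 4 under a second quantile normalization.

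**Figure D1:**
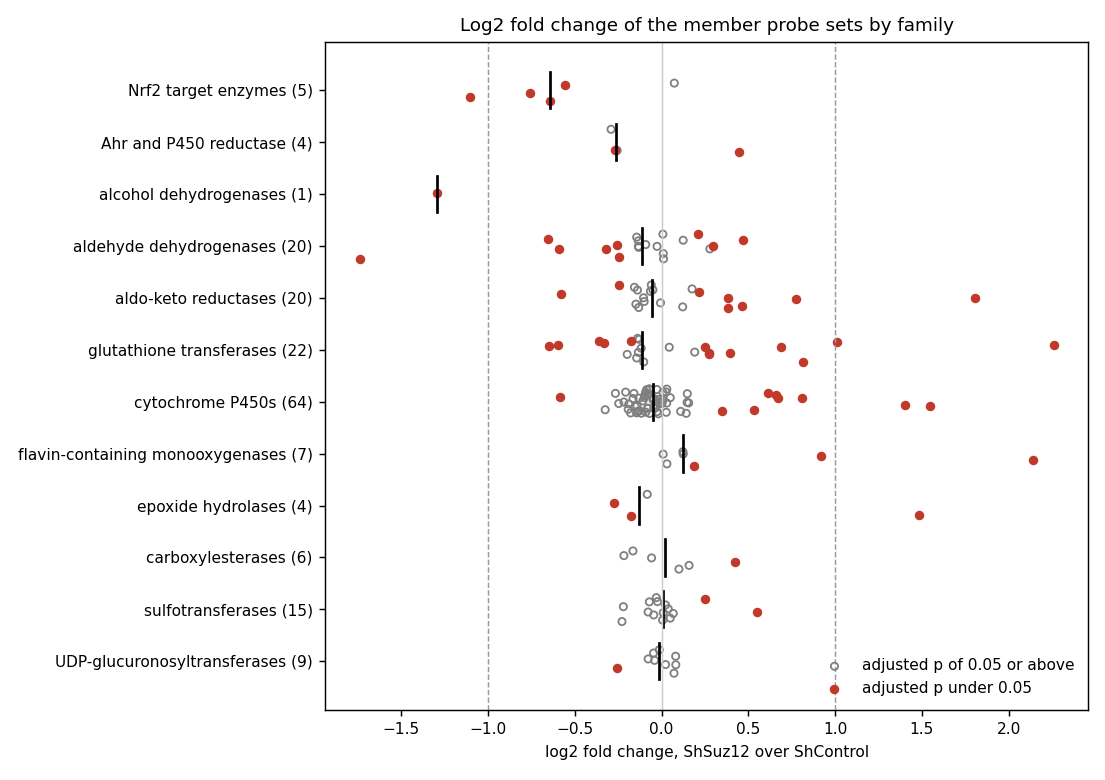
Log2 fold change (ShSuz12 over ShControl, x axis) of each of the 177 member probe sets, by family, with the family median as a vertical line and the number of probe sets in brackets. Filled points had an adjusted p under 0.05, dashed lines mark 2-fold, and 3 points lie beyond the line on the lower side and 7 on the higher side.

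Promoter sequences from RefSeq (GRCr8), 250 bases before to 50 after the start of transcription, are shown for 5 of the members that changed. Gclm and Adh7 were called lower and Akr1c15 and Mgst3 higher, and Gstm5 rose by less than 2-fold. Capitals mark TGACNNNGC, the core of the antioxidant response element bound by Nrf2, and GCGTG, the core of the xenobiotic response element bound by Ahr, on either strand. Gclm carries 1 antioxidant core, Akr1c15 carries 2, Gstm5 carries 2 together with 2 xenobiotic cores, of which 1 overlaps an antioxidant core, Adh7 carries 1 xenobiotic core and Mgst3 carries 2.
Gclm (chr2:213031885-213032184, plus strand): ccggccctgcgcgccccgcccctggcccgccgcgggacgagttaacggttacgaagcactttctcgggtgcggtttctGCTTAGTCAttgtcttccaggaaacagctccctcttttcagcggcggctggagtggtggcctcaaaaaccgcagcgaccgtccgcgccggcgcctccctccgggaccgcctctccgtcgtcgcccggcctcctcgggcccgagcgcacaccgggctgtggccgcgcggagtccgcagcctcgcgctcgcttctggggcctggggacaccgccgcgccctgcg
Akr1c15 (chr17:71117908-71118207, minus strand): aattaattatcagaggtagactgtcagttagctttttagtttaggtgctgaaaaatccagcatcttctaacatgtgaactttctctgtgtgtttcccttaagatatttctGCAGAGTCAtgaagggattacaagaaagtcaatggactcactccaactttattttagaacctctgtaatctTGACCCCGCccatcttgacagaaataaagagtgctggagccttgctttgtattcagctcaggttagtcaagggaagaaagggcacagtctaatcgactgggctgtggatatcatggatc
Gstm5 (chr2:198219519-198219818, plus strand): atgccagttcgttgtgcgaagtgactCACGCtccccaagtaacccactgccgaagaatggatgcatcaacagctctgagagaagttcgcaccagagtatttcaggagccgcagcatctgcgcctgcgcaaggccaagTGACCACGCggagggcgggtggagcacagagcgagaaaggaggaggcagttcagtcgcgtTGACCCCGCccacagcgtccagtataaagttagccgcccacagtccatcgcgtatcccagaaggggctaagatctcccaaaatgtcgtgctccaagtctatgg
Adh7 (chr2:229421875-229422174, plus strand): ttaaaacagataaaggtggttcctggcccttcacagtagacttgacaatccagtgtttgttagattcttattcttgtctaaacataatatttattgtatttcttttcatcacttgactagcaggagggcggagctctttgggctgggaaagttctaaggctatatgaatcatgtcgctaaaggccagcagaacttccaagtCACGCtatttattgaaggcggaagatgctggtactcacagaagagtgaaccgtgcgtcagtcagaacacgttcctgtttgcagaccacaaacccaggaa
Mgst3 (chr13:82080246-82080545, minus strand): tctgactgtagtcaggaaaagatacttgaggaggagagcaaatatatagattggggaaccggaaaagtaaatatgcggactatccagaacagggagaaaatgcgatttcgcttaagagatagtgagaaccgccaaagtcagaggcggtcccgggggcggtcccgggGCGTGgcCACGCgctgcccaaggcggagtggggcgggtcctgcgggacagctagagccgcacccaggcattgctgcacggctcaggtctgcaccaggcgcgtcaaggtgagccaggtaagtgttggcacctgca

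Windows were found for 121 of the 151 member genes. TGACNNNGC occurred in 12.0% of the 125 member windows and in 12.1% of all 33469 promoters, and GCGTG in 28.8% of the member windows and 29.7% of all promoters. Among genes with a window, 3 of 15 that fell (Gclm, Gsta1 and Gstp1) and 7 of 27 that rose (Akr1c15, Cyp26b1, Cyp2s1, Cyp4b1, Ephx1, Gstm5 and Gstm7) held TGACNNNGC. GCGTG was found in 7 of the 15 that fell (46.7%) and in 8 of the 27 that rose (29.6%). Counted by gene over all promoters, 13.1% held TGACNNNGC and 32.4% held GCGTG. All the printed windows hold a match, whereas the window of Mgst1, called higher, holds neither motif. A match describes the letters only. Aldh3a1, Fmo4, Cyp11b1 and Hmox1 had no window in the table.

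The members with the lowest log2 fold changes, Aldh3a1 and Adh7, oxidize aldehydes and alcohols. Aldh3a1, which oxidizes aromatic and medium-chain aldehydes and is an Ahr target in rat liver, had log2 values of 8.08, 8.10 and 8.04 in ShSuz12 cells, against 9.87, 9.75 and 9.81 in ShControl cells. The groups lay far apart, and the ShSuz12 level was 30.0% of that of ShControl cells (log2 fold change -1.74, SE 0.05, adjusted p = 2.45e-07). Adh7, the class IV alcohol dehydrogenase that acts on ethanol and retinol, had 8.73, 8.62 and 8.75 in ShSuz12 cells and 9.97, 10.00 and 10.00 in ShControl cells. Every ShSuz12 array was below every ShControl array, at 40.8% of the ShControl level (log2 fold change -1.29, SE 0.06, adjusted p = 1.41e-06).

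Among the 20 aldehyde dehydrogenase probe sets, 6 fell (30.0%, background 19.5%), 3 rose (background 14.8%) and 11 did not pass, with a median of -0.11. Of the 20, 10 exceeded the 60th percentile, and in the upper part by level 18.6% of all probe sets rose and 30.8% fell. Aldh3a2, the fatty aldehyde dehydrogenase, lies beside Aldh3a1 in the GRCr8 order of coding genes. It had 9.80, 9.66 and 9.73 in ShSuz12 cells, against 10.44, 10.43 and 10.28 in ShControl cells, and fell by 0.65 on the log2 scale (SE 0.07, adjusted p = 1.70e-04). Aldh2, the mitochondrial enzyme that oxidizes acetaldehyde, had 10.76, 10.85 and 10.86 in ShSuz12 cells and 11.42, 11.53 and 11.29 in ShControl cells. The groups did not overlap for either gene, and Aldh2 fell by 0.59 (SE 0.07, adjusted p = 4.53e-04). Aldh7a1 fell by 0.32 (adjusted p = 0.00200), and Aldh6a1, an enzyme of valine breakdown, fell by 0.26 and by 0.25 at its 2 probe sets (adjusted p = 0.0446 and 0.0192). Neither Aldh6a1 value passed once the arrays were quantile-normalized again.

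Of the 3 aldehyde dehydrogenases that make retinoic acid, 2 rose and 1 did not pass. Aldh1a1 had 5.81, 5.63 and 5.80 in ShSuz12 cells, against 5.39, 5.12 and 5.33 in ShControl cells, without overlap, and rose by 0.47 (SE 0.08, adjusted p = 0.00351). Aldh1a3 rose by 0.30 (adjusted p = 0.0173) at a dim probe set, a result lost when array medians were subtracted. Aldh1a2 stood at -0.09 on the log2 scale (adjusted p = 0.260). Aldh5a1, the succinic semialdehyde dehydrogenase, rose by 0.21 at a dimmer probe set (adjusted p = 0.0258), which passed under neither other scaling. Its other 2 probe sets stood at 0.01 (adjusted p = 0.949) and -0.03 (adjusted p = 0.776).

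**Figure D2:**
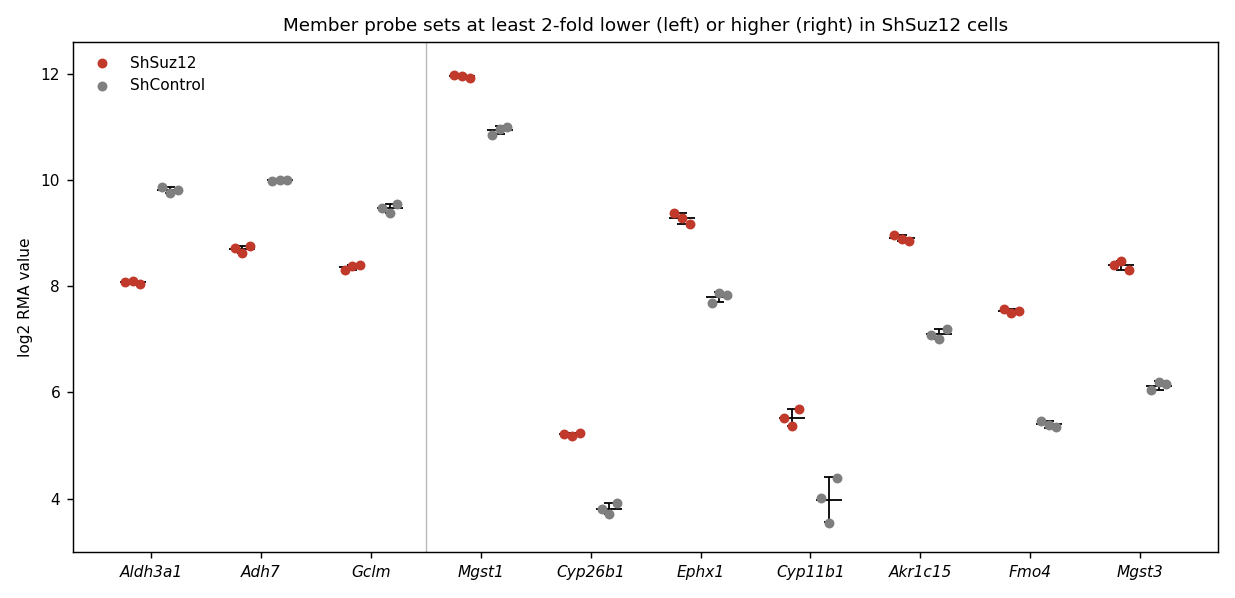
Log2 RMA values (y axis) of the 10 called member probe sets on each array, ShSuz12 left of ShControl for each gene, with points for arrays and bars for the mean and SD of 3. The 3 genes left of the line were lower and the 7 right of it higher in ShSuz12 cells, with no overlap between the groups for any of the 10. Probe sets picked by adjusted p and fold are likely to be separated, and of all probe sets 19.4% were separated as higher and 28.1% as lower.

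Gclm, Gclc and Nqo1, which serve glutathione synthesis and quinone reduction and are classical targets of Nrf2, fell. Gclm, the modifier subunit of the ligase that makes the glutathione precursor, had 8.30, 8.38 and 8.39 in ShSuz12 cells, against 9.47, 9.38 and 9.54 in ShControl cells. All 3 ShSuz12 arrays lay below the ShControl arrays, at 46.4% of their level (log2 fold change -1.11, SE 0.06, adjusted p = 5.65e-06). Gclc, the catalytic subunit of the same ligase, fell at both of its probe sets. One had 9.37, 9.26 and 9.23 in ShSuz12 cells and 10.07, 10.05 and 10.03 in ShControl cells (log2 fold change -0.76, SE 0.06, adjusted p = 3.27e-05), and the brighter one gave -0.64 (SE 0.05, adjusted p = 3.84e-05). Nqo1, the quinone reductase, had 12.35, 12.37 and 12.30 in ShSuz12 cells, against 12.89, 12.85 and 12.94 in ShControl cells. Nqo1 did not overlap between the groups and stood at 68.0% of the ShControl level (log2 fold change -0.56, SE 0.05, adjusted p = 1.23e-04).

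Hmox1, the heme oxygenase that Nrf2 also controls, overlapped between the groups, with 8.59, 8.46 and 8.41 in ShSuz12 cells and 8.35, 8.41 and 8.49 in ShControl cells. Its log2 fold change was 0.07, with a 95% interval of -0.08 to 0.23 (adjusted p = 0.448). The median over the 5 probe sets of Gclm, Gclc, Nqo1 and Hmox1 was -0.64.

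Other genes of this pathway were read from a list of the Nrf2 regulators, the thioredoxin, peroxiredoxin and glutathione peroxidase systems and the enzymes that supply NADPH, with 1 probe set a gene. Of 34 measured genes, 18 fell (52.9%, background 19.5%), 5 rose (14.7%, background 14.8%) and 11 did not pass. Brighter probe sets passed more often in general: 29 of the 34 lay in the upper part by level, where 17 fell (58.6%) and 3 rose (10.3%), against 30.8% and 18.6% of all probe sets of that part. The median log2 fold change of the 34 was -0.20. Sod3, the extracellular superoxide dismutase, was the 1 gene of the list that was called (2.94%, background 3.1%). It had 7.24, 7.21 and 7.22 in ShSuz12 cells, against 5.67, 5.71 and 5.72 in ShControl cells (log2 fold change 1.53, adjusted p = 2.84e-07). Nfe2l2, which encodes Nrf2 itself, fell by 0.26 (adjusted p = 0.00588) and Keap1, its cytoplasmic inhibitor, fell by 0.39 (adjusted p = 0.00185). Bach1, a repressor at the same response elements, did not pass (log2 fold change -0.17, adjusted p = 0.226).

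**Figure D3:**
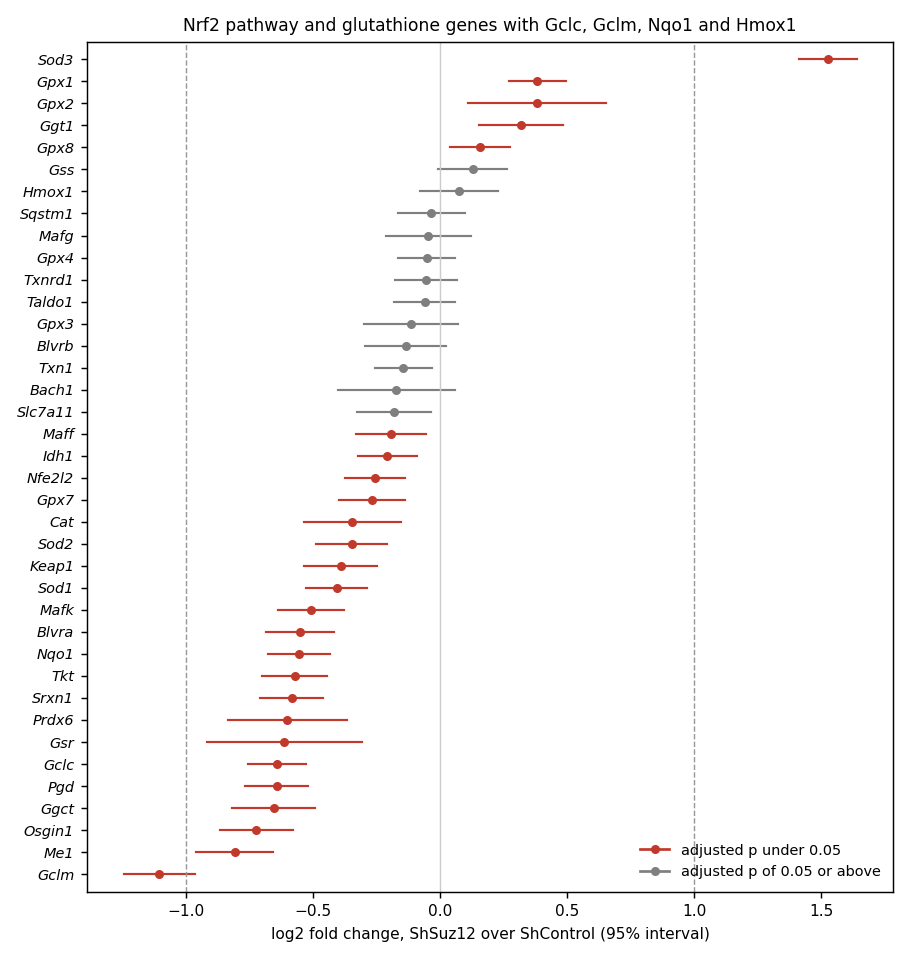
Log2 fold change (ShSuz12 over ShControl, x axis) with its 95% interval for 34 genes of the Nrf2 and glutathione list together with Gclc, Gclm, Nqo1 and Hmox1, 1 probe set a gene. Gclm at -1.11 lies at the low end and Sod3 at 1.53 at the high end, and Hmox1 crosses 0.

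The glutathione transferases moved in both directions. Of 22 probe sets, 8 rose (36.4%, background 14.8%), 5 fell (22.7%, background 19.5%) and 9 did not pass, with a median of -0.11. Of the 22, 13 exceeded the 60th percentile, and in the upper part by level 18.6% of all probe sets rose and 30.8% fell. The 2 that were called higher (9.09%, background 3.1%) were both of the membrane-bound class. Mgst3, a microsomal enzyme that reduces lipid peroxides with glutathione, had 8.40, 8.47 and 8.30 in ShSuz12 cells, against 6.04, 6.20 and 6.15 in ShControl cells. The arrays of the groups lay well apart, a 4.79-fold higher level in ShSuz12 cells (log2 fold change 2.26, SE 0.07, adjusted p = 2.08e-07). Mgst1, found in the endoplasmic reticulum and the outer mitochondrial membrane, had 11.97, 11.96 and 11.91 in ShSuz12 cells and 10.85, 10.96 and 11.00 in ShControl cells. Mgst1 rose 2.01-fold without overlap (log2 fold change 1.01, SE 0.06, adjusted p = 7.39e-06). Its call depended on the 2-fold limit, since the value was 0.91 with array medians subtracted, 1.00 without ShSuz12 replicate 1 (just under the limit) and 0.97 without ShControl replicate 1. Mgst2, the remaining microsomal gene, rose by 0.27 (adjusted p = 0.00333).

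Soluble transferases of the same class moved in opposite directions. Gstm5 had 11.28, 11.27 and 11.29 in ShSuz12 cells, against 10.45, 10.43 and 10.51 in ShControl cells, and rose by 0.82 (SE 0.05, adjusted p = 1.09e-05). Gstm1, of the same mu class, had 10.26, 10.29 and 10.27 in ShSuz12 cells and 10.94, 10.78 and 10.90 in ShControl cells, and fell by 0.60 (SE 0.06, adjusted p = 1.35e-04). Neither gene overlapped between the groups. Gstm2 fell by 0.36, whereas Gstm7 rose by 0.27 and Gstm4 by 0.25, the Gstm4 value being lost when array medians were subtracted. In the GRCr8 order Gstm2, Gstm1 and Gstm4 are consecutive coding genes, and Gstm5 and Gstm7 are separated by Gstm6l, which did not pass.

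In the alpha class, Gsta1 had 10.63, 10.63 and 10.56 in ShSuz12 cells, against 11.23, 11.22 and 11.32 in ShControl cells, and fell by 0.65 (SE 0.06, adjusted p = 6.38e-05). Gsta4, which conjugates the lipid aldehyde 4-hydroxynonenal, had 9.77, 9.65 and 9.68 in ShSuz12 cells and 8.99, 9.02 and 9.03 in ShControl cells. It rose by 0.69 (SE 0.06, adjusted p = 4.73e-05), and both alpha genes were separated on all arrays. Gsto1, of the omega class, rose by 0.39, Gstt1 fell by 0.33 and Gstp1, of the pi class, fell by 0.18 (adjusted p = 0.0318). Genes of a transferase class are close in sequence, and signal shared between their probe sets cannot be told apart here.

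**Figure D4:**
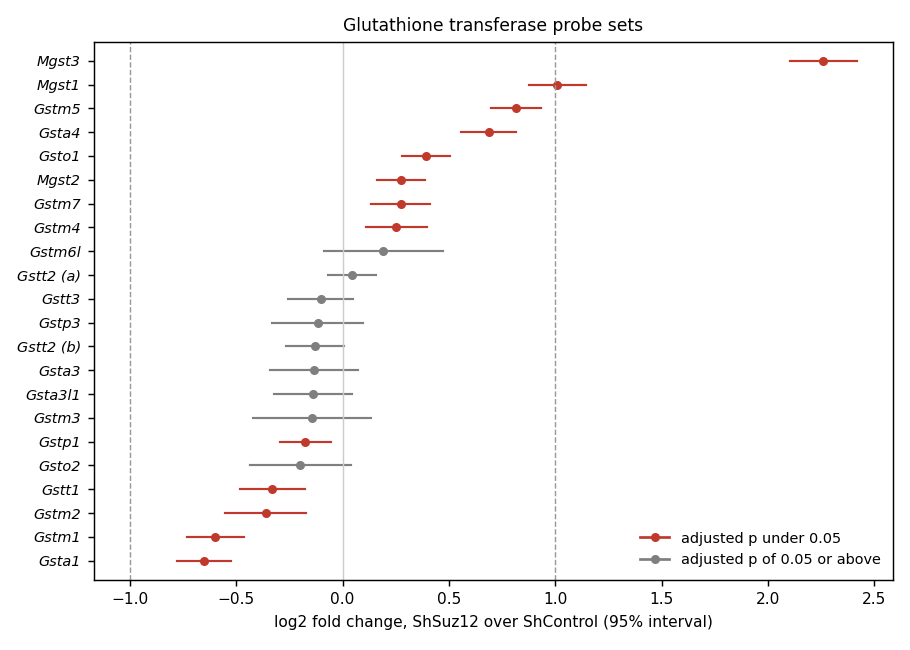
Log2 fold change (ShSuz12 over ShControl, x axis) with its 95% interval for the 22 glutathione transferase probe sets, with letters for the 2 probe sets of Gstt2. Mgst3 at 2.26 and Mgst1 at 1.01 lie beyond the dashed 2-fold line, and Gsta1 at -0.65 has the lowest value.

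The aldo-keto reductases reduce aldehydes and ketones with NADPH. Of their 20 probe sets, 6 rose (30.0%, background 14.8%), 2 fell (10.0%, background 19.5%) and 12 did not pass. Akr1c15, a reductase of the 1C subfamily, had 8.97, 8.89 and 8.85 in ShSuz12 cells, against 7.08, 7.01 and 7.19 in ShControl cells. Its ShSuz12 arrays were all higher, by 3.50-fold (log2 fold change 1.81, SE 0.07, adjusted p = 5.34e-07). Its GRCr8 neighbour Akr1c14, the rat 3-alpha-hydroxysteroid dehydrogenase, was dim and rose by 0.38 and 0.22 at 2 of its 3 probe sets, the smaller value lost when array medians were subtracted, and stood at 0.18 at the brightest (adjusted p = 0.0818). Akr1c13 rose by 0.46 (adjusted p = 0.00118), and the 1C genes are close enough in sequence for their signals to be uncertain.

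Akr1e2 had 8.14, 8.13 and 8.19 in ShSuz12 cells, against 7.28, 7.37 and 7.48 in ShControl cells, and rose by 0.78 (SE 0.06, adjusted p = 5.74e-05). Akr1b8, an aldose reductase-like enzyme, had 11.22, 11.12 and 11.17 in ShSuz12 cells and 11.79, 11.74 and 11.72 in ShControl cells, and fell by 0.58 (SE 0.05, adjusted p = 9.95e-05). Both genes were separated on every array. Aldose reductase itself, Akr1b1, lies beside Akr1b8 and did not pass at its bright probe set (log2 fold change -0.06, adjusted p = 0.414), with 11.92, 11.88 and 11.80 in ShSuz12 cells and 11.96, 11.90 and 11.94 in ShControl cells. The dimmer Akr1b1 probe set fell by 0.25 (adjusted p = 0.0443). Akr7a2, which reduces succinic semialdehyde, rose by 0.38 (adjusted p = 9.08e-04).

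Ephx1, the microsomal epoxide hydrolase, had 9.38, 9.28 and 9.17 in ShSuz12 cells, against 7.69, 7.87 and 7.83 in ShControl cells. No array of one group reached the other, and the level was 2.79-fold higher in ShSuz12 cells (log2 fold change 1.48, SE 0.08, adjusted p = 3.56e-06). Ephx2, the soluble epoxide hydrolase, fell by 0.27 (adjusted p = 0.00406), and Ephx4 fell by 0.18 at 1 probe set (adjusted p = 0.0308) and stood at -0.08 at the brighter one (adjusted p = 0.457), both dim.

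Fmo4, a flavin-containing monooxygenase, had 7.57, 7.50 and 7.54 in ShSuz12 cells, against 5.47, 5.38 and 5.34 in ShControl cells, a 4.41-fold higher level (log2 fold change 2.14, SE 0.06, adjusted p = 1.01e-07). A second Fmo4 probe set had 5.59, 5.85 and 5.52 in ShSuz12 cells and 4.64, 4.80 and 4.78 in ShControl cells. It rose by 0.92 (SE 0.09, adjusted p = 1.63e-04) and stayed under 2-fold, so that both probe sets gave the same direction with different sizes. Fmo1 and Fmo2 follow Fmo4 in the GRCr8 order. Fmo1 rose by 0.19 at a dim probe set (adjusted p = 0.0316), lost under both other scalings, and no probe set of Fmo2 passed.

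Cytochromes P450 made up 64 of the 177 probe sets, and 55 of them did not pass. Of the 8 that rose (12.5%, background 14.8%) and the 1 that fell (1.56%, background 19.5%), 4 did not exceed the 40th percentile. Both called genes (3.12% of the 64 probe sets, background 3.1%) act on endogenous substrates. Cyp11b1, the steroid 11-beta-hydroxylase of the adrenal cortex, had 5.51, 5.37 and 5.70 in ShSuz12 cells, against 4.00, 3.55 and 4.39 in ShControl cells. The groups did not overlap, but the ShControl arrays spread widely (log2 fold change 1.55, SE 0.19, adjusted p = 4.87e-04). On average Cyp11b1 lay at the 40.9th percentile of the array in ShSuz12 cells and at the 15.4th in ShControl cells, and signal from other Cyp11b genes cannot be told apart.

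Cyp26b1, which hydroxylates and so clears retinoic acid, disagreed between its probe sets. One had 5.22, 5.19 and 5.24 in ShSuz12 cells and 3.81, 3.71 and 3.92 in ShControl cells, without overlap (log2 fold change 1.40, SE 0.06, adjusted p = 2.15e-06), and it lay under the 40th percentile in both groups. The other had 5.83, 5.60 and 5.51 in ShSuz12 cells, against 5.69, 5.56 and 5.78 in ShControl cells, and its difference was -0.03 on the log2 scale (adjusted p = 0.864). The files give no means to choose between them.

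Among the P450s of middle level, Cyp4v3, a fatty acid omega-hydroxylase, had 7.73, 7.77 and 7.74 in ShSuz12 cells and 6.83, 6.96 and 7.02 in ShControl cells. It rose by 0.81 (SE 0.06, adjusted p = 3.82e-05), while its other probe set stood at -0.01 (adjusted p = 0.909). Cyp2s1, an extrahepatic P450 that Ahr can induce, had 8.02, 7.98 and 7.97 in ShSuz12 cells, against 7.38, 7.38 and 7.37 in ShControl cells, and rose by 0.61 (SE 0.05, adjusted p = 4.38e-05). Cyp4b1 rose by 0.66. Cyp2j10 rose by 0.67 but was dim, at the 34.9th percentile in ShSuz12 cells and the 24.3rd in ShControl cells. Cyp2c11, known as the male-specific P450 of rat liver, fell by 0.59 (adjusted p = 0.00193). It too was of low level, at the 33.0th percentile in ShSuz12 cells and the 42.1st in ShControl cells.

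**Figure D5:**
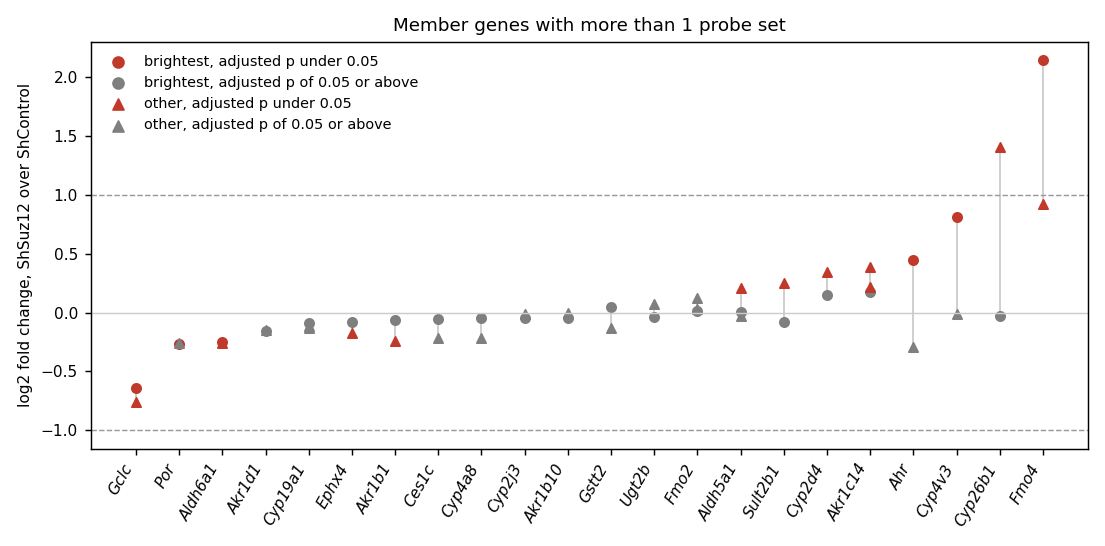
Log2 fold change (ShSuz12 over ShControl, y axis) at each probe set of the 22 member genes with more than 1, with circles for the brightest probe set, triangles for the others, and red where the adjusted p was under 0.05. Fmo4 and Cyp26b1 have 1 probe set each beyond 2-fold and another within it, and the Gclc probe sets lie together at -0.64 and -0.76.

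Ahr rose at 1 of its 2 probe sets, and its P450 targets Cyp1a1, Cyp1a2 and Cyp1b1 did not pass. At the brighter Ahr probe set the log2 values were 8.78, 8.85 and 8.89 in ShSuz12 cells, against 8.51, 8.24 and 8.43 in ShControl cells, without overlap, and Ahr rose by 0.45 (SE 0.08, adjusted p = 0.00307). The dim Ahr probe set did not pass (log2 fold change -0.29, adjusted p = 0.0519) but passed as lower under both other scalings, opposite to the brighter one. Cyp1b1, an Ahr target in many tissues, had 11.18, 11.23 and 11.24 in ShSuz12 cells and 11.09, 11.17 and 10.95 in ShControl cells. The ShSuz12 arrays lay just above the ShControl arrays, with a log2 fold change of 0.15 and a 95% interval of -0.01 to 0.30 (adjusted p = 0.132). Cyp1a1 stood at -0.25 on the log2 scale (adjusted p = 0.0586) and Cyp1a2 at 0.01 (adjusted p = 0.948). Cyp1a1 passed as lower under both other scalings. Both Cyp1a probe sets were dim, Cyp1a1 at the 21.7th percentile in ShSuz12 cells and the 26.8th in ShControl cells.

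A list around Ahr and the nuclear xenobiotic receptors held 17 measured receptors and partners. Of these, 3 rose (17.6%, background 14.8%), 2 fell (11.8%, background 19.5%) and 12 did not pass. Arnt2, a relative of the Ahr partner Arnt, was called higher, with 10.02, 9.94 and 9.96 in ShSuz12 cells, against 8.52, 8.72 and 8.47 in ShControl cells (log2 fold change 1.40, adjusted p = 4.62e-06). Arnt did not pass (log2 fold change -0.28, adjusted p = 0.320), and Ahrr, the Ahr repressor, fell by 0.32 (adjusted p = 0.00197). Tiparp, another Ahr target, had 10.32, 10.27 and 10.25 in ShSuz12 cells, against 10.83, 10.81 and 10.79 in ShControl cells, without overlap, and fell by 0.53 (adjusted p = 1.19e-04). Por, the reductase that passes electrons to all microsomal P450s, fell by 0.27 at 1 probe set (adjusted p = 0.00700) and had -0.26 at the other (adjusted p = 0.0602). Another list held 7 genes of cytochrome b5, its reductases, the heme-binding Pgrmc proteins and the mitochondrial ferredoxin Fdx1. Of these, 1 rose (14.3%, background 14.8%) and 4 fell (57.1%, background 19.5%), all by less than 2-fold. Of the 7, 6 exceeded the 60th percentile, and in the upper part by level 18.6% of all probe sets rose and 30.8% fell.

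For the transfer of sulfate and glucuronic acid most probe sets were dim, which limits what a count of changes can show. As given above, 13 of 15 sulfotransferase probe sets and all 9 of UDP-glucuronosyltransferases did not exceed the 40th percentile. Of 15 sulfotransferase probe sets 2 rose (13.3%, background 14.8%), and the family median was 0.01. The 2 were Sult5a1, by 0.55 (adjusted p = 5.70e-04), and the dimmer of 2 Sult2b1 probe sets, by 0.25 (adjusted p = 0.0325). The other Sult2b1 probe set stood at -0.08 (adjusted p = 0.642). Sult5a1 had 7.04, 6.98 and 7.05 in ShSuz12 cells, against 6.61, 6.44 and 6.38 in ShControl cells, without overlap. Of 9 UDP-glucuronosyltransferase probe sets, Ugt2b7 was the 1 that fell (11.1%, background 19.5%), by 0.26 at the bottom of the array (adjusted p = 0.0372). The other 8 did not pass, among them the brightest, Ugt2b1 (log2 fold change 0.02, adjusted p = 0.789). Of 6 carboxylesterase probe sets, all dim, Ces5a was the 1 that rose (16.7%, background 14.8%), by 0.42 (adjusted p = 0.00193). The brightest, Ces1e, stood at -0.17 on the log2 scale (adjusted p = 0.0898). Papss2, which makes the activated sulfate that sulfotransferases use, was called higher, with 8.04, 7.97 and 7.94 in ShSuz12 cells and 5.82, 5.64 and 6.05 in ShControl cells (log2 fold change 2.15, adjusted p = 2.10e-06). Of 6 measured genes for sulfate and UDP-sugar donors, Papss2 was the 1 that rose (16.7%, background 14.8%), and 2 fell (33.3%, background 19.5%).

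Drug transporters and retinoid genes were read from lists as well. Of 18 transporters, 6 rose (33.3%, background 14.8%) and 2 fell (11.1%, background 19.5%). The efflux pumps Abcg2 and Abcc1 were called higher (11.1% of the 18, background 3.1%), with log2 fold changes of 1.15 (adjusted p = 2.17e-06) and 1.06 (adjusted p = 1.77e-05). Slco3a1, an uptake carrier of organic anions, was called lower (5.56%, background 0.396%). It had 6.72, 6.74 and 6.80 in ShSuz12 cells, against 9.10, 9.06 and 9.00 in ShControl cells (log2 fold change -2.30, adjusted p = 5.43e-08). Of 21 retinoid genes, 7 rose (33.3%, background 14.8%) and 2 fell (9.52%, background 19.5%). Called higher were 2 (9.52%, background 3.1%). These were Rarres1, a retinoic acid-responsive gene (log2 fold change 1.71, adjusted p = 6.00e-05), and the dim Rbp2, a retinol-binding protein of enterocytes (log2 fold change 1.15, adjusted p = 6.94e-05). Rarb, a retinoic acid receptor whose gene responds to retinoic acid, rose by 0.95 (adjusted p = 2.03e-04), just under 2-fold.

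Fmod, set aside above, had 12.23, 12.24 and 12.26 in ShSuz12 cells, against 8.61, 8.71 and 8.62 in ShControl cells. That was a 12.1-fold higher level (log2 fold change 3.59, SE 0.05, adjusted p = 8.61e-09), against at most 2.26 at the enzyme probe sets.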

How the data were processed

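Expression was measured on 6 Affymetrix rat arrays. According to the methods, the authors ran RMA in FlexArray, and the deposited log2 values are background-corrected, normalized between arrays and summarized to 1 value per probe set. No present calls were used here. After 57 control probe sets were dropped, the other 31042 were compared in limma 3.58.1 (lmFit, eBayes; R 4.3.3) by a two-sided test, and p was adjusted over the whole table by the method of Benjamini and Hochberg. The fit was tested on simulated data. With 3 arrays a group their number limits the precision, and an exact permutation test could not go below 0.1.

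Probe sets took their names from the platform annotation. Updating it to GRCr8 symbols changed 0 names, and 9780 probe sets were unnamed. Context lists used the probe set of a gene with the highest mean, and their summed levels are sums of linear values. Named were Suz12, each called member with all its probe sets, the brightest and up to 3 most changed probe sets of each family, the genes listed singly in the rule, Fmod, the called genes of each context list and the main regulators. Other genes that the text names were chosen after their values were seen. The members and lists were chosen with earlier results of these data known.

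As alternatives, the methods' t-test was run unadjusted and adjusted, dim probe sets were removed below the 40th or 60th percentile of an array (2 of 3 arrays of a group had to exceed it), and array medians were subtracted or the arrays quantile-normalized again. Further fits used eBayes with trend and robust options, the replicate block, other thresholds, 1 value a gene, and each array left out. Figures were drawn with matplotlib 3.10.9.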

Additional observations from a re-analysis of the deposited data

How the results depend on the processing

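Over all probe sets 961 were called higher and 123 lower, and 7 and 3 of the members. With the filter at the 60th percentile, 556 probe sets were called higher and the member median was -0.13. With array medians subtracted, 194 were called lower, and the member median was -0.15, as was that of all probe sets. Without the fold limit 4607 rose and 6054 fell (members 33 and 23), and at 1.5-fold 1950 and 731 were called (members 15 and 10). Leaving out each array gave 943 to 974 higher and 119 to 130 lower calls, 6 to 7 higher and 3 lower members, and a member median of -0.0583 to -0.0308. The other alternatives kept these counts within 1.5 times. Same-numbered arrays did not deviate together (r = 0.02, -0.04 and -0.06), and with the replicate number as a block 962 were called higher and 123 lower, with 7 and 3 members. Of 39 named member probe sets, Mgst1 lost its call under 3 of the other scalings, tests, block and left-out arrays, as given above. Under these the other 38 kept their side of the threshold, and no called probe set changed sign. Of the members that passed at an adjusted p under 0.05, 0 changed sign under either other scaling. Other signs of uncalled probe sets were not followed, and those near 0 can turn. The called Cyp26b1 probe set is left out by both percentile filters and by the brightest probe set a gene, and Cyp11b1 by the filter at the 60th percentile. Dim probe sets limit the size of a fold, and present calls were not used here.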
